A study of Mus musculus with 8 samples.

Results

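Enzymes that break down or edit a cell's own nucleic acids were examined in splenocytes of a lupus-prone mouse strain and its control. The 10 genes were Dnase1l3, Dnase2a, Trex1, Samhd1, Adar, Rnaseh2a, Rnaseh2b, Rnaseh2c, Pld3 and Pld4, chosen by name as nucleases and editors whose loss leads to lupus-like or interferon disease. A row was found for 9 of them among the 13786 genes of the count table. Trex1, a cytosolic exonuclease, had no row and was not analysed here. In GENCODE M21 it lies on chromosome 9 (109057933 to 109059734, minus strand), and all 1147 of its exonic bases are shared with Atrip on the same strand.

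RNA was taken from CD11c-positive spleen cells of untreated female mice at 7 weeks of age, with 4 samples of C57BL/6, the control strain, and 4 of B6.SLE123. B6.SLE123, named in full B6.NZMSLE1/SLE2/SLE3 by the study, is a congenic strain that carries the Sle1, Sle2 and Sle3 lupus susceptibility intervals on a C57BL/6 background, so it differs from the control at several loci at once. The labels call the cells dendritic cells, but CD11c is also found on macrophages and other leukocytes. The labels do not say whether a sample was 1 animal, so p-values measure the spread between samples, which may be in part technical. Counts summed to between 25563070 and 37367094 per sample, and no member had fewer than 466 counts in any sample. Levels are given in CPM, a count scaled to a common library total after TMM normalization. Changes are log2 fold changes with C57BL/6 as the base, and values below 0 are lower levels in the lupus-prone strain.

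Nucleic acid from dying cells, engulfed material and the cell's own replication is normally removed before innate sensors meet it. DNases act outside the cell and in lysosomes, the phospholipase D family exonucleases trim single-stranded nucleic acid in endolysosomes, and SAMHD1, ADAR1 and RNase H2 act on nucleotides, double-stranded RNA and RNA:DNA hybrids inside the cell. When one of these steps fails, Toll-like receptors, cGAS or MDA5 can respond to self nucleic acid and induce type I interferon, a cytokine family long tied to lupus.

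Promoter sequences are shown for 3 members, Pld3 and Pld4 because these paralogs changed by very different amounts, and Adar because 1 of its annotated starts held the most motif matches. Each runs 5′ to 3′ on the strand of the gene, from 250 bases before the transcription start to 50 bases after it, in RefSeq's GRCm38.p6 assembly. The reference is of the C57BL/6 background, and alleles of B6.SLE123 were not analysed here. Capitals mark GAGGAA, a form of the site bound by PU.1 and other ETS factors, and GAAANNGAA, a core of the interferon response element. Both were searched on both strands, and other forms of the ETS site were not searched.
Pld3 promoter, chr7:27553169-27553468, minus strand: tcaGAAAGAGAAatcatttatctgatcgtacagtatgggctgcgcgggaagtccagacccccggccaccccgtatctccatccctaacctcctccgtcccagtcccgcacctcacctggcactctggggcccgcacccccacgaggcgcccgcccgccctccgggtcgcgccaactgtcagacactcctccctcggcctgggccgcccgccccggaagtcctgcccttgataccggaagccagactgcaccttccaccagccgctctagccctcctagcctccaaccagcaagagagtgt
Pld4 promoter, chr12:112760405-112760704, plus strand: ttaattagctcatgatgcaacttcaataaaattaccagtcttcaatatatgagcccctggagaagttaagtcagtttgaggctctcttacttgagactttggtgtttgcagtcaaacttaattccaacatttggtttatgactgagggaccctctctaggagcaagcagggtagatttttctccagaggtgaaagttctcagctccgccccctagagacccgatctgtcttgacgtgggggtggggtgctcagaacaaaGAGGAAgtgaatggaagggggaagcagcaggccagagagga
Adar promoter, start with most matches, chr3:89730468-89730767, plus strand: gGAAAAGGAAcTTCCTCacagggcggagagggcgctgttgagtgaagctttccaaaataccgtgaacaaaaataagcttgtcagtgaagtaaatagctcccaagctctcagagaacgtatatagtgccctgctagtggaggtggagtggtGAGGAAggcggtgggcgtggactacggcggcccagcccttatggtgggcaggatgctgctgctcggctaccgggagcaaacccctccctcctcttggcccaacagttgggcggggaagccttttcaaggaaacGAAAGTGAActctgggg
The Pld3 window held GAAANNGAA, with its first base 247 bases before the start, and no GAGGAA. The Pld4 window held GAGGAA 10 bases past the start and no GAAANNGAA. The Adar window held both motifs more than once. GAGGAA was found in 28.3% of 32851 promoters of this length and GAAANNGAA in 8.56%. The E-box CACGTG, present in 7.15%, was not found in any window of the members. Windows were found for 8 of the 10 members, without Dnase1l3 and Rnaseh2b. Of the other windows of measured members, those of Rnaseh2a and Rnaseh2c and another start of Adar held GAGGAA, and those of Samhd1 and Dnase2a and the remaining start of Adar held neither motif. A match describes letters and not binding.

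By edgeR's quasi-likelihood test, 6 of the 9 measured members had an adjusted p below 0.05, where 53.4% of all genes did. Dnase1l3, Rnaseh2b and Adar were higher in B6.SLE123 samples, and Pld3, Dnase2a and Pld4 were lower, against 26.7% of all genes higher and 26.6% lower. Pld3 and Dnase2a also passed a 2-fold change, both lower, as did 11.1% of all genes in either direction and 8.29% on the lower side. The samples of the strains did not overlap for 5 members, namely Dnase1l3, Rnaseh2b, Pld3, Dnase2a and Pld4, a feature shared by 48.9% of all genes. Of the 5, 2 were higher and 3 lower, against 24.4% and 24.5% of all genes. The median log2 fold change was -0.02 over the 9 members and -0.0019 over all genes. Since 4 samples stood against 4, the smallest p that the exact two-sided permutation test can give for a single gene is 0.0286.

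**Figure D1:**
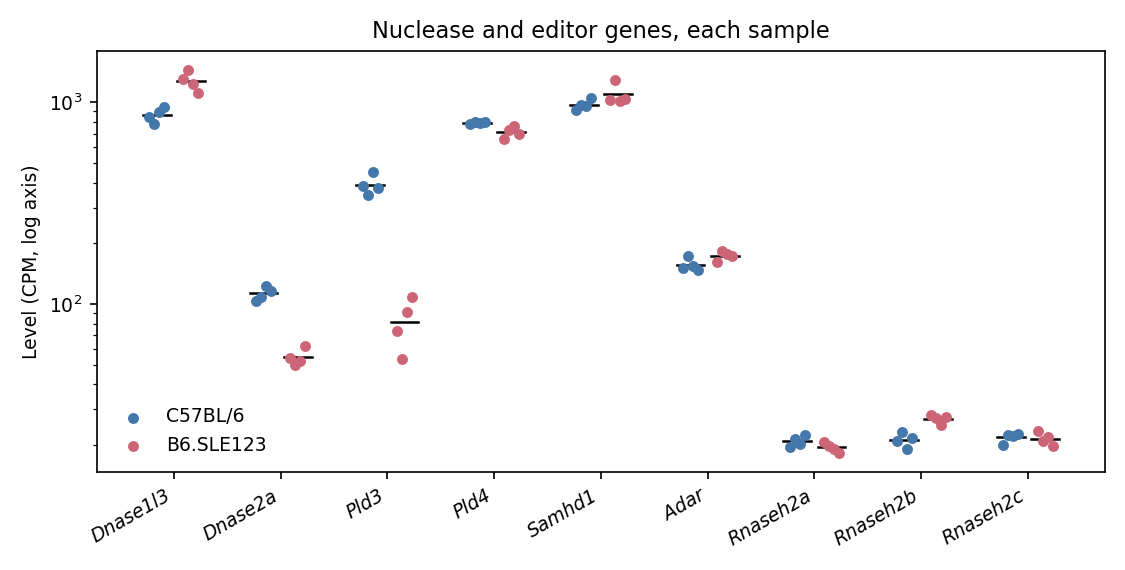
Level of each measured member in each sample, in CPM on a log axis, with 1 point per sample coloured by strain and a black line at the strain mean. Pld3 and Dnase2a show the widest gaps, with every B6.SLE123 sample below every C57BL/6 sample, while the strains overlap for Samhd1, Adar, Rnaseh2a and Rnaseh2c.

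The endolysosomal exonucleases differed sharply in their response. Pld3, which trims single-stranded DNA and RNA from the 5′ end in endolysosomes and so limits ligands of TLR9 and TLR7, had 384, 346, 453 and 378 CPM in C57BL/6 samples and 73.2, 53.1, 90.9 and 108 CPM in B6.SLE123 samples. The highest B6.SLE123 sample lay far below the lowest C57BL/6 sample. The mean level was 390.0 ± 45.0 CPM (SD, n = 4) in C57BL/6 and 81.4 ± 23.7 CPM (SD, n = 4) in B6.SLE123 samples. The log2 fold change of Pld3 was -2.26 with an SE of 0.18 and a 95% interval from -2.66 to -1.86, a 4.80-fold lower level (adjusted p = 2.60e-06 by edgeR; exact permutation p = 0.0286). Pld3 lies on chromosome 7 (27532000 to 27553218, minus strand of mm10) and shares no exon with another annotated gene.

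Pld4, its paralog with the same exonuclease activity, had 778, 802, 785 and 794 CPM in C57BL/6 samples and 655, 725, 766 and 694 CPM in B6.SLE123 samples. The strains did not overlap, but the gap between them was narrow. The log2 fold change of Pld4 was -0.15 with an SE of 0.05, a 1.11-fold lower level (adjusted p = 0.0237 by edgeR; exact permutation p = 0.0286). Without C57BL/6 replicate 2 its adjusted p was 0.0562, and over all alternative analyses it ranged from 0.00814 to 0.0562. Pld4 lies on chromosome 12 (112760655 to 112768990, plus strand) and overlaps no other gene.

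Since both exonucleases were counted in each library, their ratio does not depend on library scaling. Counts of Pld3 were 0.431 to 0.576 times those of Pld4 in C57BL/6 samples and 0.0732 to 0.156 times in B6.SLE123 samples. The log2 ratio differed by -2.15 between the strains, with no overlap (exact permutation p = 0.0286; 0.0357 adjusted over the 5 ratios tested).

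**Figure D2:**
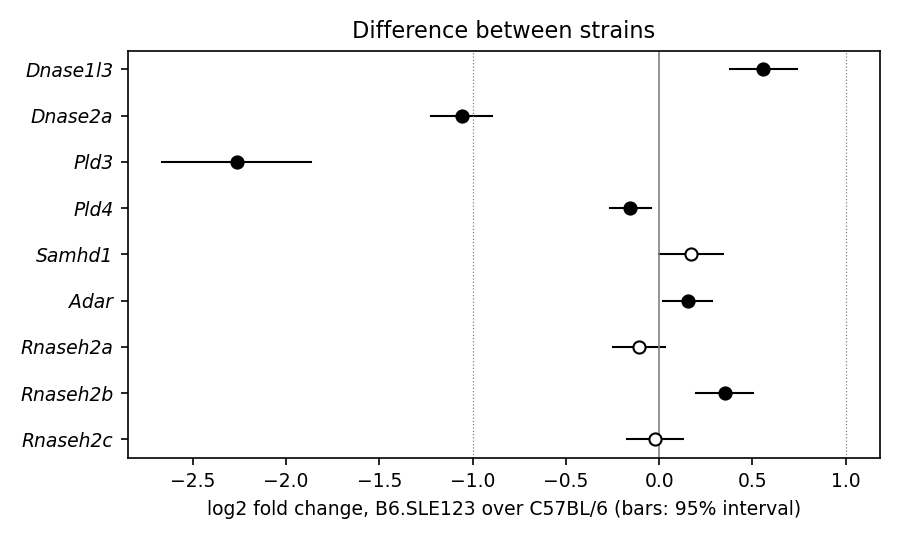
Log2 fold change of B6.SLE123 over C57BL/6 for each measured member, with 95% intervals as bars, filled points for an adjusted p below 0.05 and dotted lines at a 2-fold change. Pld3 at -2.26 and Dnase2a at -1.06 lie furthest from 0, and Dnase1l3 at 0.56 is the highest.

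The DNases of the lysosome and of the extracellular space moved in opposite directions. Dnase2a encodes DNase II, the acid nuclease that digests DNA of engulfed cells in lysosomes. Its level was 104, 109, 123 and 117 CPM in C57BL/6 samples and 53.9, 49.7, 52.3 and 61.8 CPM in B6.SLE123 samples. All B6.SLE123 samples lay well below all C57BL/6 samples and close to each other. Dnase2a fell from 113 ± 8.67 CPM (SD, n = 4) to 54.4 ± 5.20 CPM (SD, n = 4), with a log2 fold change of -1.06, an SE of 0.07 and a 95% interval from -1.22 to -0.90. This was a 2.08-fold lower level (adjusted p = 1.14e-06 by edgeR; exact permutation p = 0.0286). Dnase2a lies on chromosome 8 (84908560 to 84922915, plus strand) and shares 1616 exonic bases with Mast1 on the opposite strand, so reads of the pair can be told apart only where counting used the strand, which is not given in the sources used here. Mast1 itself had 3.37 CPM in C57BL/6 and 2.10 CPM in B6.SLE123 samples.

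Dnase1l3 encodes a secreted DNase that digests chromatin released by dying cells, and its loss causes familial lupus. Its level was 841, 779, 894 and 943 CPM in C57BL/6 samples and 1307, 1447, 1225 and 1115 CPM in B6.SLE123 samples. Every B6.SLE123 sample lay above every C57BL/6 sample. Dnase1l3 rose from 864 ± 70.2 CPM (SD, n = 4) to 1274 ± 139.8 CPM (SD, n = 4), with a log2 fold change of 0.56, an SE of 0.08 and a 95% interval from 0.38 to 0.74. This was a 1.47-fold higher level (adjusted p = 0.000189 by edgeR; exact permutation p = 0.0286). Dnase1l3 lies on chromosome 14 (7964533 to 7994573, minus strand), with no overlapping gene. Counts of Dnase1l3 were 7.17 to 8.11 times those of Dnase2a in C57BL/6 samples and 18.1 to 29.1 times in B6.SLE123 samples. The log2 ratio of this pair was higher by 1.61 in B6.SLE123 samples (exact permutation p = 0.0286; 0.0357 adjusted over the 5 ratios).

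The subunits of RNase H2, which removes ribonucleotides built into DNA and the RNA of RNA:DNA hybrids, did not move together. Rnaseh2b, an accessory subunit, had 20.9, 23.3, 19.1 and 21.6 CPM in C57BL/6 samples and 28.3, 27.3, 25.0 and 27.6 CPM in B6.SLE123 samples. The strains did not overlap. Rnaseh2b rose from 21.2 ± 1.75 CPM (SD, n = 4) to 27.1 ± 1.40 CPM (SD, n = 4), a log2 fold change of 0.35 with an SE of 0.07 (adjusted p = 0.00141 by edgeR; exact permutation p = 0.0286). The gene lies on chromosome 14 (62292589 to 62372992, plus strand) and shares 66 exonic bases with Dleu7, which had no row.

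Rnaseh2a, the catalytic subunit, ranged from 19.6 to 22.5 CPM in C57BL/6 samples and from 18.3 to 20.7 CPM in B6.SLE123 samples. These ranges overlapped, and its log2 fold change of -0.11 had a 95% interval from -0.25 to 0.03 (adjusted p = 0.181 by edgeR; exact permutation p = 0.143). Rnaseh2c, the other accessory subunit, ranged from 19.9 to 22.7 CPM in C57BL/6 and from 19.8 to 23.4 CPM in B6.SLE123 samples. Its log2 fold change of -0.02 had a 95% interval from -0.17 to 0.13 (adjusted p = 0.795 by edgeR; exact permutation p = 0.771). Rnaseh2a lies on chromosome 8 (84956610 to 84969767, minus strand), 33.7 kb from Dnase2a, and shares 339 exonic bases with Gm49661 on its own strand and 177 with Prdx2 on the other. Prdx2 was more abundant than Rnaseh2a, at 80.7 CPM in C57BL/6 and 81.7 CPM in B6.SLE123 samples, so the counts of Rnaseh2a are uncertain. Rnaseh2c lies on chromosome 19 (5601873 to 5607019, plus strand) and shares 426 exonic bases with Kat5 on the opposite strand, which had 38.2 and 36.3 CPM. Kat5 was more abundant than Rnaseh2c, so the counts of Rnaseh2c are also uncertain.

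Within samples, the balance of subunit counts shifted toward Rnaseh2b. The ratios carry the uncertainty of the Rnaseh2a and Rnaseh2c counts given above. Counts of Rnaseh2a were 0.921 to 1.06 times those of Rnaseh2b in C57BL/6 samples and 0.664 to 0.764 times in B6.SLE123 samples, a difference of -0.46 in the log2 ratio (exact permutation p = 0.0286; 0.0357 adjusted over the 5 ratios). The log2 ratio of Rnaseh2b over Rnaseh2c was higher by 0.38 in B6.SLE123 samples (exact permutation p = 0.0286; 0.0357 adjusted). That of Rnaseh2a over Rnaseh2c differed by -0.08, with overlapping samples (exact permutation p = 0.114; 0.114 adjusted).

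**Figure D3:**
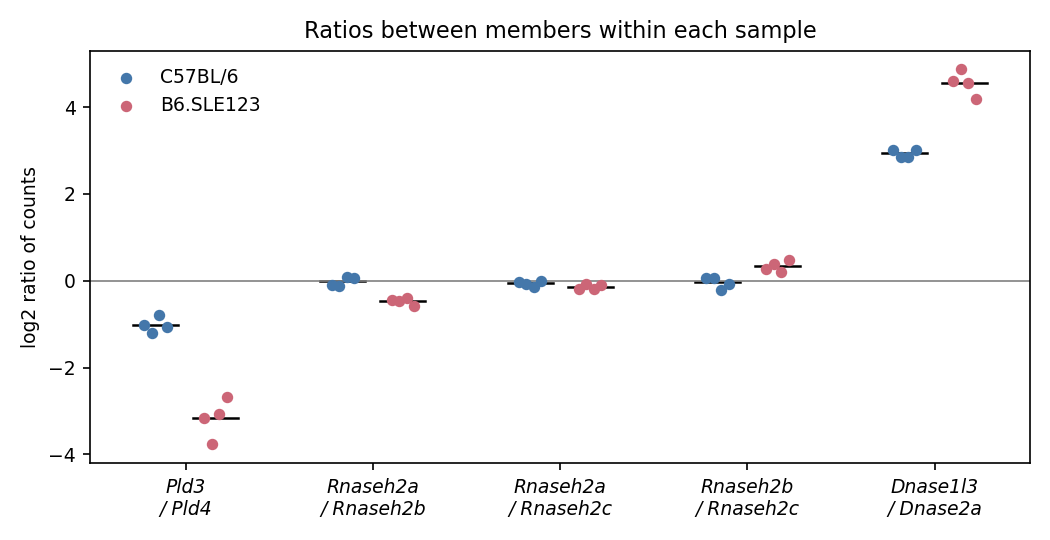
Log2 ratio of the counts of member pairs within each sample, with 1 point per sample coloured by strain and a black line at the strain mean. The strains separate for Pld3 over Pld4, Rnaseh2a over Rnaseh2b, Rnaseh2b over Rnaseh2c and Dnase1l3 over Dnase2a, and overlap for Rnaseh2a over Rnaseh2c.

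Samhd1 and Adar, which act in the cell body and nucleus, changed little. Samhd1, a hydrolase that lowers the pool of deoxynucleotides, had 916, 968, 955 and 1051 CPM in C57BL/6 samples and 1030.5, 1293, 1019 and 1037 CPM in B6.SLE123 samples. The strains overlapped, and replicate 2 of B6.SLE123 stood above the rest. Its log2 fold change of 0.17 had a 95% interval from -0.0020 to 0.34 (adjusted p = 0.0881 by edgeR; exact permutation p = 0.114). Without replicate 2 of B6.SLE123 the log2 fold change was 0.07 (adjusted p = 0.294), and over all alternatives the adjusted p ranged from 0.0654 to 0.294. Samhd1 lies on chromosome 2 (157097533 to 157135265, minus strand), with no overlapping gene.

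Adar, whose product edits adenosine to inosine in double-stranded RNA and keeps self RNA from MDA5, had 150.03, 173, 154 and 147 CPM in C57BL/6 samples and 161, 183, 178 and 172 CPM in B6.SLE123 samples. The strains overlapped through replicate 2 of C57BL/6. The log2 fold change of Adar was 0.15 with an SE of 0.06 (adjusted p = 0.0488 by edgeR; exact permutation p = 0.0857). Leaving out samples in turn lost this call in 6 of 8 cases, with adjusted p of 0.121, 0.0994 and 0.148 without C57BL/6 replicates 1, 3 and 4 and of 0.144, 0.0993 and 0.0841 without B6.SLE123 replicates 2, 3 and 4. It was also lost when genes with low counts were removed (0.0644) and with library totals alone (0.0671), and over all alternatives the adjusted p ranged from 0.00903 to 0.148. Adar lies on chromosome 3 (89715022 to 89753446, plus strand) and shares 1365 exonic bases with Chrnb2 on the opposite strand, which had 5.98 and 4.05 CPM.

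Divided by the exonic length of each gene, the members fell into an order of level. The length takes in the exons of all annotated transcripts, and which transcripts were expressed was not examined, so the order is approximate. The RNase H2 subunits Rnaseh2a, Rnaseh2b and Rnaseh2c had similar levels in C57BL/6 samples (20.96, 21.2 and 21.8 CPM). Their order below follows their lengths of 3509, 6243 and 1715 bases. In C57BL/6 samples Pld4 was the most abundant, with a mean of 228 CPM per kb of exon, followed by Dnase1l3 at 168, Pld3 at 133 and Samhd1 at 106 CPM per kb. Dnase2a at 20.98 and Adar at 19.2 CPM per kb came next, then Rnaseh2c at 12.7, Rnaseh2a at 5.97 and Rnaseh2b at 3.40 CPM per kb. Among neighbours in this order, only Dnase1l3 and Pld3, and Dnase2a and Adar, had overlapping sample ranges. An error in length would move all samples of a gene alike, so separate ranges do not secure the order. In B6.SLE123 samples Dnase1l3 stood at 247 and Pld4 at 205 CPM per kb with overlapping ranges, and Samhd1 followed at 119.7 CPM per kb. Pld3, at 27.8 CPM per kb, had dropped to the range of Adar at 21.4 CPM per kb, and Dnase2a, at 10.1 CPM per kb, now lay below Rnaseh2c at 12.5 CPM per kb. Rnaseh2a at 5.54 and Rnaseh2b at 4.33 CPM per kb were again the lowest. The summed level of the members ranged from 3233 to 3496 CPM in C57BL/6 and from 3254 to 3819 CPM in B6.SLE123 samples, which overlap.

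Markers of several cell types moved along with the members. In RNA of a mixed cell preparation, fewer cells of a type and less RNA per cell cannot be told apart. All 14 red pulp macrophage markers, none of them at 0, were lower in B6.SLE123 samples. Their median log2 fold change was -2.47, with a summed level of 14014 to 17791 CPM in C57BL/6 and 2055 to 3973 CPM in B6.SLE123 samples. Vcam1, an adhesion molecule, fell from 2471 to 453 CPM and Csf1r, the receptor of macrophage colony-stimulating factor, from 2324 to 515 CPM. The level of Pld3 stayed close to that of this list. The log2 ratio of Pld3 to the summed markers ranged from -5.34 to -5.30 in C57BL/6 and from -5.27 to -5.18 in B6.SLE123 samples, a difference of 0.10 against -2.26 for Pld3 itself. Dnase2a fell less than the list, since its log2 ratio to the same sum was higher by 1.35 in B6.SLE123 samples. The part of macrophage content in these results was not tested.

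Among the rising members, Dnase1l3 was set beside dendritic cell lists and Rnaseh2b beside proliferation markers, while Adar was set beside no list. Of 8 markers of type 1 conventional dendritic cells, which take up dying cells and cross-present, 6 were higher and 1 lower, with a median log2 fold change of 0.87. Their summed level was 2847 to 3228 CPM in C57BL/6 and 4639 to 5974 CPM in B6.SLE123 samples, led by Wdfy4 (1851 and 3344 CPM) and Naaa (374 and 778 CPM). Batf3 (-0.14) was the lower marker, and Cadm1 (-0.18) did not pass the threshold. Wdfy4 made up most of the sum. Dnase1l3 rose less than this sum, with a log2 ratio to it that differed by -0.25 between the strains. All 7 pan dendritic cell markers were higher, by a median of 0.28, led by Cd74 (11172 and 13245 CPM) and H2-Ab1 (5636 and 6834 CPM). These 2 genes made up most of the sum. The log2 ratio of Dnase1l3 to the sum of the 7 markers was higher by 0.29, with overlapping samples. All 10 proliferation markers were higher, with a median of 1.01, led by Mki67 (197 and 478 CPM) and Top2a (143 and 307 CPM), and the log2 ratio of Rnaseh2b to their sum was lower, with a difference of -0.68. The part of these cell types in the results was not tested.

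**Figure D4:**
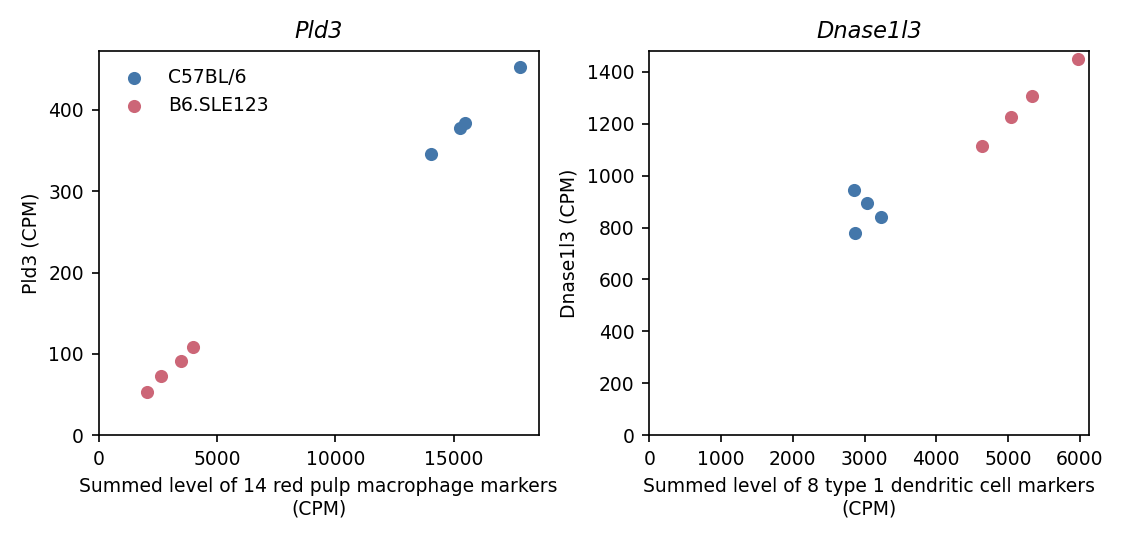
Level of Pld3 against the summed level of 14 red pulp macrophage markers (left) and of Dnase1l3 against that of 8 type 1 conventional dendritic cell markers (right), in CPM on linear axes from 0, with 1 point per sample coloured by strain. Samples with lower marker sums have lower Pld3, and the B6.SLE123 samples lie at higher marker sums and higher Dnase1l3 than the C57BL/6 samples.

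The counts of all marker lists stand against 26.7% of all genes higher and 26.6% lower. The remaining lists moved as follows. All 3 marginal zone macrophage markers were lower (median -1.77), as were 7 of 8 erythroid markers (median -2.90), with none higher. Of 8 type 2 conventional dendritic cell markers 1 was higher and 2 lower (median -0.29), and of 10 plasmacytoid dendritic cell markers 2 were higher and 4 lower (median -0.02). Of 9 B cell markers 1 was higher and 6 lower (median -0.56), of 5 plasma cell markers 2 were higher and 2 lower (median 0.29), and of 7 T cell markers 1 was higher and 1 lower (median -0.21). Of 8 monocyte markers 3 were lower (median -0.20) and of 5 neutrophil markers 2 (median -0.25), with the others not past the threshold. None of 5 NK cell markers passed the threshold by edgeR (median -0.45).

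The genes whose pattern was most like that of Pld3 over the 8 samples, among 9081 genes with a mean of at least 10 CPM, were Kctd12b, Sema6d and Scamp5. Their Pearson r with Pld3 in log2 CPM was 0.9996, 0.9995 and 0.9995, and their log2 fold changes were -1.75, -2.30 and -2.69. For Dnase2a they were Stard5, Tspan15 and Tmem86a, with r of 0.998, 0.997 and 0.997 and log2 fold changes of -0.77, -2.97 and -1.73. These values describe 8 samples that share the strain difference. With the strain means removed, r was 0.995, 0.994 and 0.993 for the genes set beside Pld3. It was 0.963, 0.950 and 0.918 for those set beside Dnase2a. The genes had been picked by r over the same 8 samples. Kctd12b, Scamp5 and Tspan15 averaged 9.62, 7.69 and 6.43 CPM in B6.SLE123 samples. They met the minimum of 10 CPM, taken over all samples, only through C57BL/6 samples.

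Neighbouring genes were examined within 250 kb of each member, a window chosen after values were seen. Pld3 is on chromosome 7, as is the Sle3 interval, whose bounds were not examined here. Of 13 neighbours of Pld3 in the table, Blvrb (-1.67), Prx (-1.71) and Numbl (-0.40) were lower, Zfp607b (0.64) was higher, and the median log2 fold change was -0.11. The call of Numbl was lost without C57BL/6 replicates 1 or 4 (adjusted p = 0.0684 and 0.0675) or B6.SLE123 replicate 4 (0.0580) and with the replicate number as a block (0.0536), and that of Prx, at under 1 CPM in either strain, without C57BL/6 replicates 3 or 4 (0.0614 and 0.0575) or B6.SLE123 replicate 2 (0.05001). Of 29 neighbours of Dnase2a, 5 were higher and 13 lower, at a median of -0.22. Over all genes 26.7% were higher and 26.6% lower, and the counts of neighbours stand against these shares. For the other members the median of the neighbours ran from -0.22 for Rnaseh2a to 0.16 for Pld4, and Rnaseh2b had no neighbour in the table. The part of position in these results was not tested.

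Genes that work beside the members were read from 5 lists, which hold 86 measured genes when each is counted once, and 51 passed the threshold of an adjusted p below 0.05. This share of 59.3% is near the 53.4% of all genes, of which 26.7% were higher and 26.6% lower, and the counts of each list stand against these shares. Of 20 other nucleases in the table, 6 were higher and 7 lower, and the median log2 fold change was -0.12. Exo1 (0.89), an exonuclease of DNA repair, and Fen1 (0.79), the flap endonuclease of replication, rose most. Ang (-2.16) and Rnase4 (-2.01), secreted ribonucleases, fell most, Ang from 1.30 to 0.296 CPM and Rnase4 from 5.23 to 1.30 CPM. Ang was therefore near the lower limit of what was counted, and it met the minimum of 1 CPM for a named gene only through C57BL/6 samples. Ang and Rnase4 come from 1 locus, so their reads may not be fully separate.

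Genes of endosomal sensing, which hold receptors, adaptors and proteases, were split. Of 21 genes 5 were higher and 8 lower (median -0.04). Tlr8 (-1.89) and the protease Ctsl (-1.82), which cleaves endosomal Toll-like receptors, fell most. Tlr3 (0.89), a receptor of double-stranded RNA, and its adaptor Ticam1 (0.42) rose most. Tlr7 and Tlr9, named after their values were seen because PLD3 and PLD4 limit their ligands, went opposite ways. Tlr7, the receptor of single-stranded RNA, fell from 153 ± 4.62 to 91.1 ± 11.4 CPM (SD, n = 4 each), a log2 fold change of -0.75 (adjusted p = 1.36e-05 by edgeR). Tlr9, the receptor of CpG DNA, rose from 163 ± 5.91 to 187 ± 9.53 CPM (SD, n = 4 each), a log2 fold change of 0.20 (adjusted p = 0.00449 by edgeR).

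Of 15 genes of cytosolic DNA sensing, 4 were higher and 5 lower (median -0.12). Ifi205 (1.13) and Zbp1 (0.47) rose most, while Enpp1 (-1.84), which degrades the messenger cGAMP, and Ifi204 (-1.44) fell most. Ifi204 and Ifi205 belong to a family of related genes whose reads may be split, and alleles of B6.SLE123 were not analysed here. Cgas, the DNA sensor that makes cGAMP, rose from 27.5 ± 2.01 to 36.6 ± 1.47 CPM (SD, n = 4 each), a log2 fold change of 0.42 (adjusted p = 0.000181 by edgeR), and was named after its values were seen. The count of lower genes was 3 without C57BL/6 replicate 1, 2 or 3. The call of Zbp1 was lost without C57BL/6 replicates 1 or 3 (adjusted p = 0.0721 and 0.0675) or B6.SLE123 replicates 2 or 3 (0.0704 and 0.0559). Without B6.SLE123 replicate 2 its log2 fold change was 0.30.

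Of 14 genes of cytosolic RNA sensing, the step that ADAR1 restrains, 3 were higher and 6 lower (median -0.24). Tlr3 and Oasl1 (0.61) rose most. Tlr3 is an endosomal receptor that stands in this list, the endosomal list and the list of type 1 conventional dendritic cell markers, so its rise is counted in each. Oas2 (-0.55), which makes the messenger of RNase L, and Mavs (-0.55), the adaptor of MDA5 and RIG-I, fell most. The call of Oas2 was lost without C57BL/6 replicates 2, 3 or 4 (adjusted p = 0.102, 0.0839 and 0.0516) or B6.SLE123 replicate 3 (0.0537) and under DESeq2 (0.0693). Without B6.SLE123 replicate 1 the log2 fold change of Oas2 was -0.36, still past the threshold (adjusted p = 0.0197).

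Of 18 type I interferon stimulated genes, 0 were higher and 8 lower by edgeR, with a median log2 fold change of -0.19. At an unadjusted p below 0.05, 1 gene was higher, and DESeq2 and limma-voom also called 0 higher and 8 lower after adjustment. Ifit3 (-0.89) and Rtp4 (-0.75) fell most, from 58.2 ± 10.5 to 31.4 ± 9.48 CPM and from 44.2 ± 6.01 to 26.2 ± 5.76 CPM (SD, n = 4 each). Without C57BL/6 replicate 3 or B6.SLE123 replicate 4 Bst2 was called higher (0.15 and 0.14), as was Irf9 (0.14) without B6.SLE123 replicate 1, each 1 gene.

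**Figure D5:**
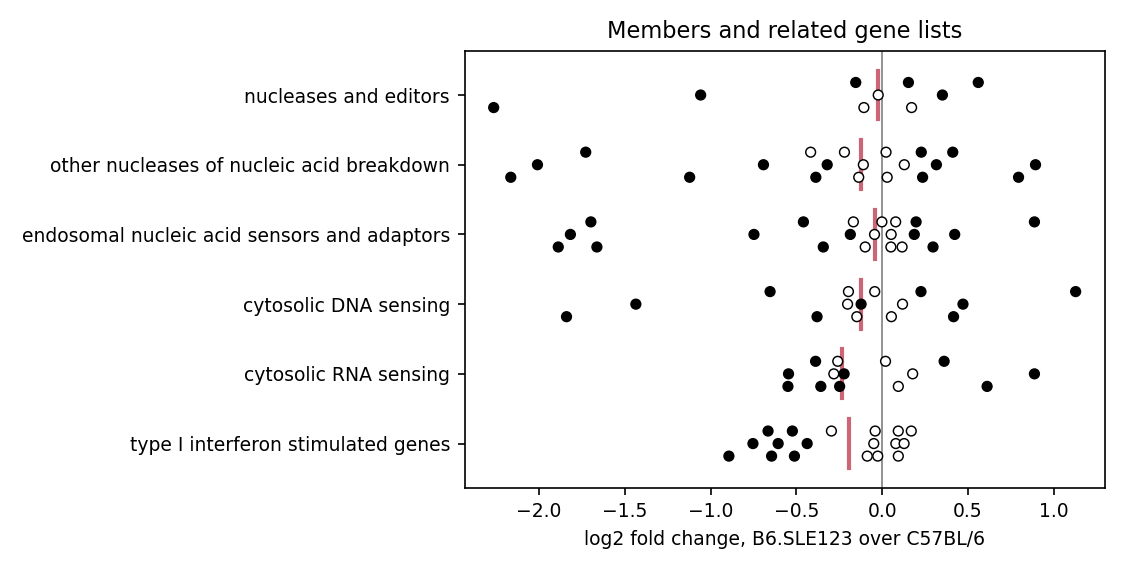
Log2 fold change of B6.SLE123 over C57BL/6 for the measured members and the 5 related lists, with 1 point per gene, filled for an adjusted p below 0.05, and a coloured bar at the median of each list. Medians lie between -0.24 and -0.02, and no filled point of the interferon stimulated genes lies above 0.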

How the data were processed

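Libraries of a stranded mRNA kit had been sequenced for 4 C57BL/6 and 4 B6.SLE123 samples of CD11c-positive spleen cells. The authors used cutadapt for trimming, STAR for alignment to mm10 and featureCounts for counting, and the deposited table holds raw counts by gene and sample, not normalized. The same table holds the authors' DESeq2 comparison of the strains, with a mean normalized signal, a log2 fold change and its error, a test score, p-values and a linear fold ratio. These deposited columns were not used. Strain was taken from the sample titles and the methods, because the strain number in the genotype labels rises from sample to sample.

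Counts were scaled by TMM and compared with edgeR 4.0.16 in R 4.3.3 (quasi-likelihood F test, strain only). P-values were adjusted by Benjamini-Hochberg over all 13786 genes of the table, which the authors had already filtered, with no further filter. CPM are TMM-scaled, and log2 CPM use a prior count of 2. Single genes and count ratios were compared by exact two-sided permutation over samples. The ratio of Trex1 and Samhd1 could not be computed. Positions are those of mm10, and exon lengths and overlaps are from GENCODE M21. Totals were at least 25563070 counts per sample. Over all genes together, no samples of a strain differed as little as sampling noise (chi-square per degree of freedom 4.96 to 18.9). Sampling error was not compared with the spread of single genes. It weighs more where counts are few, as for the RNase H2 subunits, Ang and Prx. Code was tested on simulated data. Alternatives were RLE scaling, library totals alone, DESeq2 1.42.0, limma-voom (limma 3.58.1), a block on the replicate number, removal of genes under 10 counts in any sample, and each sample left out.

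The members and lists were chosen with earlier results of these data known. Named genes were the members and the 3 genes most correlated with Pld3 and Dnase2a. Of each pathway list they were the 2 genes that rose and the 2 that fell most, at an adjusted p below 0.05 and a mean of at least 1 CPM. The 2 most abundant markers were planned for every marker list. They are given for the red pulp macrophage, type 1 conventional and pan dendritic cell and proliferation lists. Pld4 was also set beside the plasmacytoid dendritic cell and B cell lists. Its log2 ratio to their sums differed by -0.02 and 0.006 between the strains, and the genes of these lists are not named. Other experiments of the study were not analysed here.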

Additional observations from a re-analysis of the deposited data

Results flagged for a closer look

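In B6.SLE123 samples, the log2 CPM of Samhd1 in replicate 2 was 10.34, against a strain median of 10.01, and its gap to the nearest other sample was large for the range of the group. In C57BL/6 samples, the log2 CPM of Rnaseh2c in replicate 1 was 4.32, against a strain median of 4.49, and was set apart in the same way on the low side. Of 28 groups of 4 samples examined, 2 stood out like this, and chance sets apart about 1 in 20, or 1.4 of 28.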

How the results depend on the processing

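With each sample left out in turn, the members past the threshold numbered 5 to 6, those more than 2-fold changed numbered 2 throughout, and pathway genes past the threshold numbered 46 to 52. Of the lists, lower genes of cytosolic DNA sensing ranged from 3 to 7 and higher interferon stimulated genes from 0 to 1 in these fits. Rnaseh2c ranged from -0.070 to 0.0013 and reversed sign without B6.SLE123 replicate 4. Pld3 ranged from -2.44 to -2.11, Dnase2a from -1.13 to -1.01 and Dnase1l3 from 0.48 to 0.61. The calls of Adar and Pld4 that were lost are given with their values in the results. Of 544 values of 39 named genes that are not members, 526 kept direction and side of the threshold, 16 lost the call, 2 gained it and 0 reversed. With the replicate number as a block, 6 members passed the threshold, 2 of them more than 2-fold, and 56 pathway genes passed. The block gave -2.30 for Pld3 and 7183 genes past the threshold, against 7356. Samples with the same number did not deviate together (correlations -0.029 to 0.12, and 2 of 4 numbers best with their own), so the numbers were not taken as pairs. The two-sided exact test of the ratios doubles the smaller tail, so its smallest p is 0.0571 with a sample left out and 0.125 with signs flipped within numbers, and these were read as values.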
